A study of Gallus gallus with 4 samples.

Results

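The cells described here are the NRCAM and AKAP12 positive epithelial cells of feathers plucked from 12-day chicken embryos, 834 of the 6208 cells kept in that single-cell library (13.4%, exact 95% interval 12.6 to 14.3). They were chosen by transcript counts, that is, by unique molecular identifiers (UMIs) per cell barcode. A barcode was kept with at least 300 genes and at most 10% of its UMIs from the 13 mitochondrial genes. It was a member with at least 2 UMIs of NRCAM, at least 3 of AKAP12 and NRP1 together, fewer than 3 of SHH, and at most 5 of the collagen genes COL1A1 and COL1A2 together. The comparison cells of the same library had no NRCAM UMI, at least 3 UMIs of GATA3 and KRT5 together and at most 5 of the same collagen genes, and there were 2104 of them. Cells that meet the first rule are called NRCAM-positive cells below.

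The study sequenced white leghorn chicken embryos in 4 droplet libraries, 1 for each group, and no gene was altered and no agent given in any of them. Feathers plucked from the dorsal midline gave single cells at 12 days (stage 38 of Hamburger and Hamilton), and single nuclei at 13 days (stage 39) and 14 days (stage 40). Dorsal midline skin with its feathers still embedded gave single cells at 12 days. The labels do not state how many embryos went into a library. Since each group is 1 library, nothing here could be tested over replicates, and every interval below covers counting error only.

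An embryonic feather is a tube of epidermis around a dermal pulp, and its epithelium folds into barb ridges. Within a ridge, cells of the marginal plate express SHH, the central barbule and barb cells go on to keratinise, and cells at the axial position are lost later so that the branches come apart. NRCAM is a cell adhesion molecule of the immunoglobulin superfamily, best known from axons. AKAP12 is a scaffold protein that holds protein kinase A and protein kinase C near the membrane. NRP1 is a co-receptor for semaphorins and vascular endothelial growth factor, and NINJ1 is a small membrane protein first described in injured nerve and later in plasma membrane rupture. The files list these genes as ENSGALG00000009514 (NRCAM), ENSGALG00000036240 (AKAP12), ENSGALG00000007140 (NRP1) and ENSGALG00000026891 (NINJ1).

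The NRCAM-positive cells carried epithelial transcripts. Of the 834 NRCAM-positive cells, 824 (98.8%) also had at least 3 UMIs of GATA3 and KRT5, which the rule did not ask of them. KRT5, a keratin of basal epidermis, stood at 804 CPM (UMI counts scaled to the same total in each set) in NRCAM-positive cells and 488 CPM in comparison cells. GATA3 was instead lower in NRCAM-positive cells (log2 ratio -0.80, on the scale given below). Both genes also served to choose the comparison cells. The epithelial adhesion genes EPCAM, at 1093 CPM against 1963 CPM, and CDH1, at 251 CPM against 209 CPM, were found in 99.8% and 93.4% of NRCAM-positive cells. TP63, the master regulator of stratified epithelium, was found in 80.1% of them. As a set, epithelial markers were not higher than in comparison cells. Those outside the rules summed to 5202 CPM in NRCAM-positive cells and 7724 CPM in comparison cells. Of the 9 with at least 50 CPM in either set, 3 were above the comparison level and 6 below it. Of these 9, 2 were at least 2-fold lower and none was 2-fold higher, against 3.18% and 0.718% of all genes compared below. The fibroblast markers other than COL1A1 and COL1A2 summed to 105 CPM in NRCAM-positive cells and 220 CPM in comparison cells. The 10 mural markers summed to 4.27 CPM against 9.96 CPM, and the 6 leukocyte markers to 3.79 CPM against 5.90 CPM. PTPRC, the pan-leukocyte surface phosphatase, had 5 UMIs over all 834 NRCAM-positive cells, and STMN2 of neurons had 0. The few markers of other classes that were seen widely, TUBB3 at 448 CPM against 558 CPM and MITF at 158 CPM against 159 CPM, were at that level or above it in the comparison cells.

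NRCAM-positive cells were read more deeply, with a median of 12891 UMIs and 3328 genes, against 10155 UMIs and 2897 genes in comparison cells. The share of mitochondrial UMIs was 6.18% in NRCAM-positive cells and 5.53% in comparison cells. NRCAM itself was sparse: its median was 3 UMIs per positive cell and its highest value 12. A total of 332 cells had exactly the 2 NRCAM UMIs the rule asks for, and 501 further cells with 1 NRCAM UMI met every other condition. On the AKAP12 and NRP1 condition, 67 cells sat at exactly 3 UMIs and 46 cells with 2 UMIs fell just outside. Both genes were present in 691 NRCAM-positive cells, while 130 had no AKAP12 and 13 had no NRP1. As the values that chose the cells, NRCAM averaged 227 CPM against 0, AKAP12 409 CPM against 126 CPM, NRP1 673 CPM against 225 CPM, and SHH 3.87 CPM against 215 CPM. Of the comparison cells, 331 had at least 3 SHH UMIs, so values against the other 1773 are given where they matter.

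Among the 3205 genes with at least 50 CPM in either set, other than the 8 genes of the rules and the mitochondrial and globin genes, 23 were at least 2-fold higher in NRCAM-positive cells (0.718%) and 102 were at least 2-fold lower (3.18%). The fold is taken on log2(CPM + 10), which understates the difference for low genes, and a log2 ratio of 1 is the limit. The median log2 ratio over all these genes was 0.04. NRCAM-positive cells thus differed from the comparison cells by few genes at a higher level and by more genes at a lower level. Restricting both sets to cells of 8000 to 30000 UMIs gave 24 genes higher and 95 lower. Against the 1773 comparison cells low in SHH, 21 genes were higher (0.655%) and 103 lower (3.21%), and SMTN (0.96) and NAALADL2 (0.92) were then inside the limit.

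**Figure D1:**
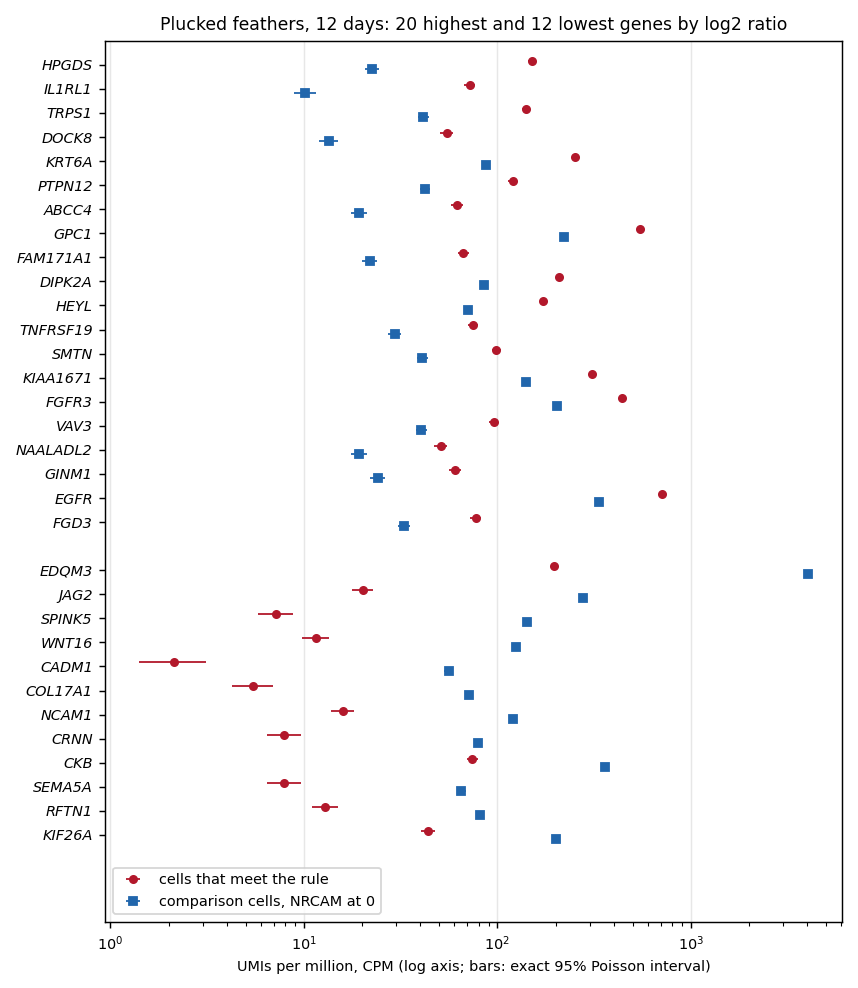
CPM on a log axis of the 20 genes with the highest and the 12 with the lowest log2 ratio among genes with a symbol, in NRCAM-positive cells (red circles) and in comparison cells (blue squares), with exact 95% Poisson intervals. The higher genes lie between 51.0 and 705 CPM in NRCAM-positive cells, and EDQM3 shows the widest gap, at 197 CPM against 4045 CPM.

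Among adhesion genes, NINJ1 was higher and NCAM1, CADM1 and ALCAM were lower. NINJ1 reached 46.1 CPM in NRCAM-positive cells and 9.83 CPM in comparison cells, a log2 ratio of 1.5 (interval 1.31 to 1.69), and was seen in 41.3% of NRCAM-positive cells against 8.70%. It lies below the 50 CPM limit and so is not among the 23 genes. NCAM1, the founding neural cell adhesion molecule, stood at 15.9 CPM in NRCAM-positive cells and 121 CPM in comparison cells (log2 ratio -2.34). CADM1, a synaptic and epithelial adhesion molecule, had 2.13 CPM against 56.1 CPM (-2.45), and ALCAM, a ligand of the receptor CD6, had 18.1 CPM against 76.7 CPM (-1.63). Of the list of 32 adhesion molecules of neural type, 4 were abundant enough to compare, with a median of -1.98. Of these 4, 3 were at least 2-fold lower and none higher, against 3.18% and 0.718% of all compared genes. The fourth, NEO1, a netrin receptor, stood at -0.01.

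A part of that gap sat with the SHH-positive comparison cells. CADM1 reached 265 CPM in the 331 comparison cells with at least 3 SHH UMIs and 14.1 CPM in the other 1773, and against those 1773 cells its log2 ratio was -0.99. SEMA5A, a transmembrane semaphorin, behaved in the same way, with 7.90 CPM in NRCAM-positive cells, 266 CPM in SHH-positive comparison cells and 25.1 CPM in the others (log2 ratio -2.07 over all comparison cells and -0.97 over those low in SHH). NCAM1, at 350 CPM and 74.9 CPM in the same 2 kinds of comparison cell, and ALCAM, at 61.2 CPM and 79.8 CPM, were still lower in NRCAM-positive cells when the SHH-positive cells were left out (-1.71 and -1.68).

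Of the 45 listed semaphorin, plexin, ephrin, ROBO and netrin genes, 14 were abundant enough to compare, none was at least 2-fold higher and 3 were at least 2-fold lower (median -0.36). These were SEMA5A and the guidance receptors ROBO1, with a log2 ratio of -1.24, and EPHB1, with -1.02. SEMA3A, a secreted ligand that binds NRP1, had a log2 ratio of -0.99, just inside the limit. The 7 genes of the VEGF pathway, whose ligands also bind NRP1, were all under 50 CPM and summed to 25.5 CPM in NRCAM-positive cells and 50.2 CPM in comparison cells. None of the 5 comparable genes of the cAMP and protein kinase A list was 2-fold different, and their median was 0.19. Among all compared genes 0.718% were higher and 3.18% lower.

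The 23 higher genes included EGFR, FGFR3, GPC1 and TNFRSF19. EGFR, the receptor of epidermal growth factor, stood at 705 CPM in NRCAM-positive cells and 336 CPM in comparison cells (1.05), and FGFR3, a fibroblast growth factor receptor, at 442 CPM against 203 CPM (1.09). GPC1, a heparan sulfate proteoglycan that binds growth factors at the membrane, had 546 CPM against 220 CPM (1.27). TNFRSF19, a receptor of the tumour necrosis factor family, had 74.9 CPM against 29.5 CPM (1.11). FGFR3 was found in 89.1% of NRCAM-positive cells and 63.3% of comparison cells. In the FGF list 2 genes could be compared, and 1 of them, FGFR3, was at least 2-fold higher. In the EGFR list 4 could be compared, and 1 of them, EGFR, was at least 2-fold higher. No comparable gene of either list was at least 2-fold lower. The shares over all compared genes were 0.718% higher and 3.18% lower. Both genes were named for being among the highest, so these list counts are not independent of that choice.

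In the Notch list JAG2 was lower and HEYL was higher. JAG2, a membrane ligand of Notch receptors, had 20.2 CPM in NRCAM-positive cells and 277 CPM in comparison cells (-3.25). Its level was 1066 CPM in SHH-positive comparison cells and 119 CPM in the others, and against the others the log2 ratio was -2.09. HEYL, a transcriptional repressor induced by Notch signalling, had 173 CPM in NRCAM-positive cells and 70.8 CPM in comparison cells (1.18), and 80.7% of NRCAM-positive cells held it against 37.1%. The other 5 of 7 comparable Notch genes were within the 2-fold limit, among them NOTCH1 (0.37) and HES1 (-0.36). Over all compared genes 0.718% were higher and 3.18% lower.

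Some genes of the WNT, TGF-beta and BMP lists were lower. WNT16, a WNT ligand, had 11.5 CPM in NRCAM-positive cells and 124 CPM in comparison cells (-2.64). LEF1, a nuclear effector of WNT signalling, had a log2 ratio of -1.31, while its relative TCF7 lay on the other side at 0.96, so 2 of the 10 comparable WNT genes were lower and none was higher (median -0.16). TGFB2 and TGFB3, ligands of the transforming growth factor beta family, had log2 ratios of -1.55 and -1.07 and were the 2 genes of their list that could be compared. BMP2 had a log2 ratio of -1.02 and was the 1 lower gene of 8 comparable in the BMP list, whose median was 0.02. Among all compared genes 3.18% were lower. Against comparison cells low in SHH the log2 ratios were -0.58 for LEF1, -0.50 for TGFB2, -0.30 for TGFB3 and -0.39 for BMP2, all within the 2-fold limit. WNT16 remained at -1.99.

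Enzymes and carriers included the gene with the highest log2 ratio. HPGDS, the haematopoietic prostaglandin D synthase, had 151 CPM in NRCAM-positive cells and 22.5 CPM in comparison cells, a log2 ratio of 2.31 (interval 2.16 to 2.46). It was carried by 327 of the 834 cells (39.2%), and 61 of them held at least 10 UMIs. ABCC4, an export pump that carries prostaglandins and cyclic nucleotides among other substrates, had 62.0 CPM against 19.3 CPM (1.3). PTPN12, a tyrosine phosphatase of adhesion sites, had 120 CPM against 42.3 CPM (1.31). SMTN, an actin-binding protein, had 98.9 CPM against 40.9 CPM (1.10). FAM171A1, at 66.7 CPM against 22 CPM, KIAA1671, at 310 CPM against 140 CPM, NAALADL2, at 51.0 CPM against 19.3 CPM, and GINM1, at 60.4 CPM against 24.0 CPM, were also among the 20 highest genes, as was DIPK2A, at 209 CPM against 84.9 CPM. CKB, the brain-type creatine kinase, was lower at 74.4 CPM against 358 CPM (-2.12), as were the raft protein RFTN1, at 12.9 CPM against 81.2 CPM (-1.99), and the kinesin KIF26A, at 43.8 CPM against 202 CPM (-1.98).

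IL1RL1, the receptor of interleukin 33, came second, with 71.8 CPM in NRCAM-positive cells and 10.1 CPM in comparison cells (2.02), but 149 cells held all of it. Of the NRCAM-positive cells, 87 carried both IL1RL1 and GATA2, against 32 of the comparison cells. TRPS1, a GATA-type transcriptional repressor, had 141 CPM against 41.4 CPM (1.55), and KRT6A, a keratin of activated and appendage epithelium, had 251 CPM against 87.1 CPM (1.43). TRPS1 is also a gene of the dermis here: with every cell thinned to 3000 UMIs it was found in 20.8% of NRCAM-positive cells and 9.04% of comparison cells, and in 73.0% of the cells with at least 20 collagen UMIs. By the same measure HPGDS was found in 20.2% of NRCAM-positive cells, 3.62% of comparison cells and 5.25% of collagen-rich cells. NINJ1 was found in 13.8%, 2.53% and 11% of them in the same order. The shares were 58.7%, 36.8% and 57.25% for FGFR3 and 17.2%, 7.90% and 20.5% for TNFRSF19. They were 68.9%, 42.7% and 53.5% for GPC1 and 79.7%, 55.0% and 29.5% for EGFR. Without thinning, the shares for HPGDS were 39.2% in NRCAM-positive cells, 8.84% in comparison cells and 7.59% in collagen-rich cells, whose median depth was 5044 UMIs.

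Several genes of terminal differentiation were lower than in the comparison cells, which included clusters led by SPINK5 and EDQM3 (described below). EDQM3, a gene of the avian epidermal differentiation complex, had 197 CPM in NRCAM-positive cells and 4045 CPM in comparison cells (-4.29), the lowest log2 ratio of all named genes. A single NRCAM-positive cell held 459 of the 2489 EDQM3 UMIs, and without it the log2 ratio was -4.57. SPINK5, an inhibitor of epidermal proteases, had 7.19 CPM against 143 CPM (-3.15). CRNN, cornulin of the epidermal barrier, had 7.90 CPM against 79.6 CPM (-2.32), with 70 of its 100 UMIs in a single NRCAM-positive cell. Of the 5 comparable genes of the keratinisation list 4 were lower and none higher (median -1.46). COL17A1, a collagen of the hemidesmosome, had 5.45 CPM against 71.6 CPM (-2.40). With ITGA6, its integrin partner in the hemidesmosome (-1.19), and LAMA5, a laminin chain, it made 3 of 7 comparable basement membrane genes lower and none higher. Against comparison cells low in SHH, ITGA6 was at -0.55 and LAMA5 at -0.81. None of the 14 comparable junction genes and none of the 15 epidermal transcription factors was 2-fold different, and the medians of both lists were 0.19 and 0.14. Over all 3205 compared genes, 0.718% were higher and 3.18% lower, so these zeros are near the share over all genes.

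None of the 8 comparable S-phase genes and none of the 12 comparable G2/M genes reached the limit, and their medians were -0.25 and -0.28. Of all compared genes 0.718% were higher and 3.18% lower, so these zeros are near the share over all genes. Log2 ratios were below 0 for 7 of the 8 S-phase genes and 11 of the 12 G2/M genes. These signs depended on the settings. MCM6, PCNA, UHRF1, CENPF, BUB1B and CENPE were each above 0 under at least 1 alternative, while RFC2 and CDK1 stayed below it. The clusters led by replication and mitosis genes, described below, held 15.1% of NRCAM-positive cells and 9.22% of comparison cells. No lower share of cycling cells follows from the signs. Of the 14 comparable stress and dissociation genes 1 was lower, ATF3, and the median was -0.20.

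**Figure D2:**
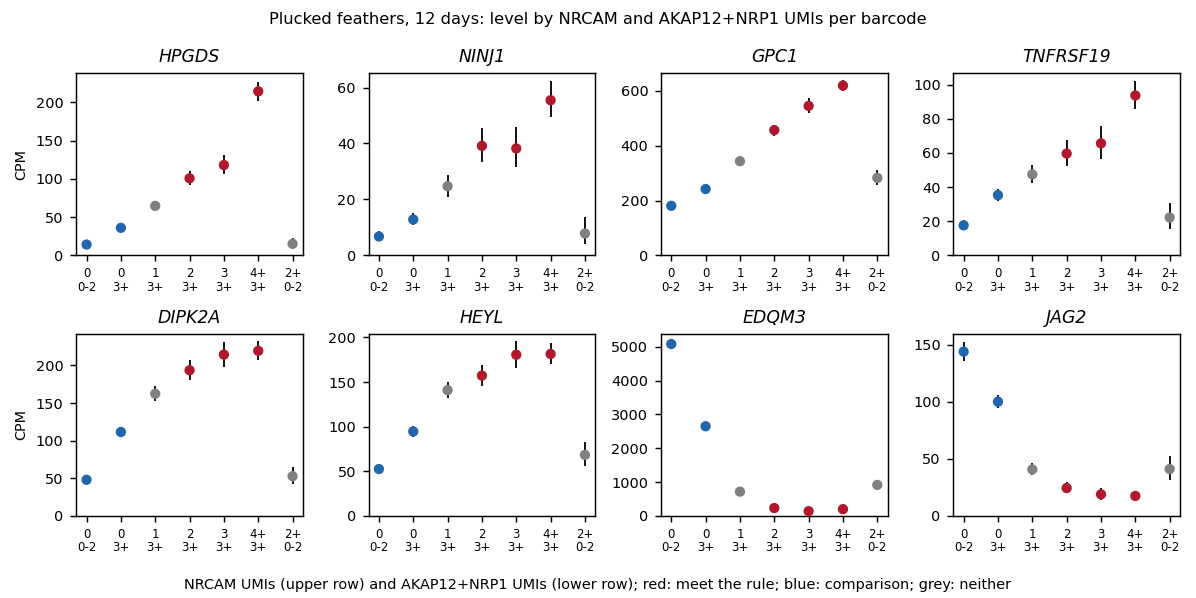
CPM of 8 genes in groups of GATA3 and KRT5 positive cells with fewer than 3 SHH UMIs, by the number of NRCAM UMIs (upper row of labels) and of AKAP12 and NRP1 UMIs together (lower row), with exact 95% Poisson intervals. HPGDS runs through 14.1, 35.9, 64.6, 101, 118 and 214 CPM along the first 6 groups. It drops to 15.0 CPM in the last, with at least 2 NRCAM UMIs and 0 to 2 UMIs of the pair.

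Levels of other genes differed between cells of different NRCAM counts. NRCAM was sparse, so a cell with 0 or 1 UMI may also express it, and the steps between these groups do not show how levels change from cell to cell. Among cells with at least 3 UMIs of AKAP12 and NRP1, HPGDS stood at 35.9 CPM with no NRCAM UMI, 64.6 CPM with 1, 101 CPM with 2, 118 CPM with 3 and 214 CPM with 4 or more. GPC1 went through 242, 344, 457, 545 and 620 CPM over the same groups, and EDQM3 through 2650, 718, 233, 141 and 201 CPM. Cells with 1 NRCAM UMI, outside the rule, therefore lay between the groups with 0 and with 2 UMIs for each of these 3 genes. SPINK5 and CRNN had other patterns, with 110, 5.28, 9.44, 2.71 and 7.98 CPM for SPINK5 and 93.6, 99.3, 19.8, 2.03 and 1.52 CPM for CRNN over the same groups. Median depth was 11068 UMIs in the group with no NRCAM and 15783 UMIs in the group with 4 or more, so a higher NRCAM count also marked a deeper cell. The part of depth in the NRCAM classes was not tested. The 8000 to 30000 UMI window was set for NRCAM-positive and comparison cells, not for these classes.

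Several of the higher genes were low where NRCAM was present with few or no UMIs of AKAP12 and NRP1. In the 123 cells that had at least 2 NRCAM UMIs and fewer than 3 of AKAP12 and NRP1, DIPK2A, a secreted kinase-like protein, stood at 52.7 CPM. It was at 48.1 CPM in cells low for both and at 194 to 219 CPM in NRCAM-positive cells. HPGDS in the same 123 cells was at 15.0 CPM and NINJ1 at 7.81 CPM, close to the 14.1 CPM and 6.73 CPM of cells low for both. The step at the limit was not equally sharp for each gene. In 65 NRCAM-positive cells with exactly 3 UMIs of the pair, DIPK2A was at 70.9 CPM and NINJ1 at 14.2 CPM. HPGDS was at 87.3 CPM in those 65 cells. KRT6A, at 171 CPM against 112 CPM, and TRPS1, at 76.8 CPM against 40.2 CPM, were higher in the 123 cells than in cells low for both. EDQM3 was lower in the 123 cells, at 917 CPM against 5079 CPM. These groups differ in depth as well, with medians of 11600 UMIs in the 123 cells and 8609 UMIs in cells low for both.

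The NRCAM-positive cells were not 1 cluster. When the library's cells were clustered without the 8 genes of the rules, 23 clusters formed and NRCAM-positive cells fell into 16 of them, with 584 (70.0%) in 3. Cluster 0 held 332 of them, which were 51.1% of its cells, and FAM171A1, NINJ1 and DIPK2A were among its leading genes. Cluster 2 held 166 and was led by IL1RL1, NFKBIZ and GATA2, and cluster 15 held 86 and was led by KRT6A and TRPS1. Clusters 12 and 14, led by genes of DNA replication and mitosis, together held 126 NRCAM-positive cells (15.1%) and 194 comparison cells (9.22%). The remaining groups of some size were 42 cells in cluster 4, led by MSLN, and 41 in cluster 6, led by AGBL1 and SEMA3C. Many comparison cells sat elsewhere. Clusters 8, 9, 10 and 11 held 12.7%, 10.1%, 10.0% and 12.1% of comparison cells and 0.60%, 0.72%, 1.08% and 0.12% of NRCAM-positive cells. SHH and JAG2 led cluster 8, HSDL1 and EDQM3 cluster 9, F-KER cluster 10, and SPINK5 and CADM1 cluster 11. Low values of such genes in NRCAM-positive cells are relative to a comparison that includes these clusters.

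**Figure D3:**
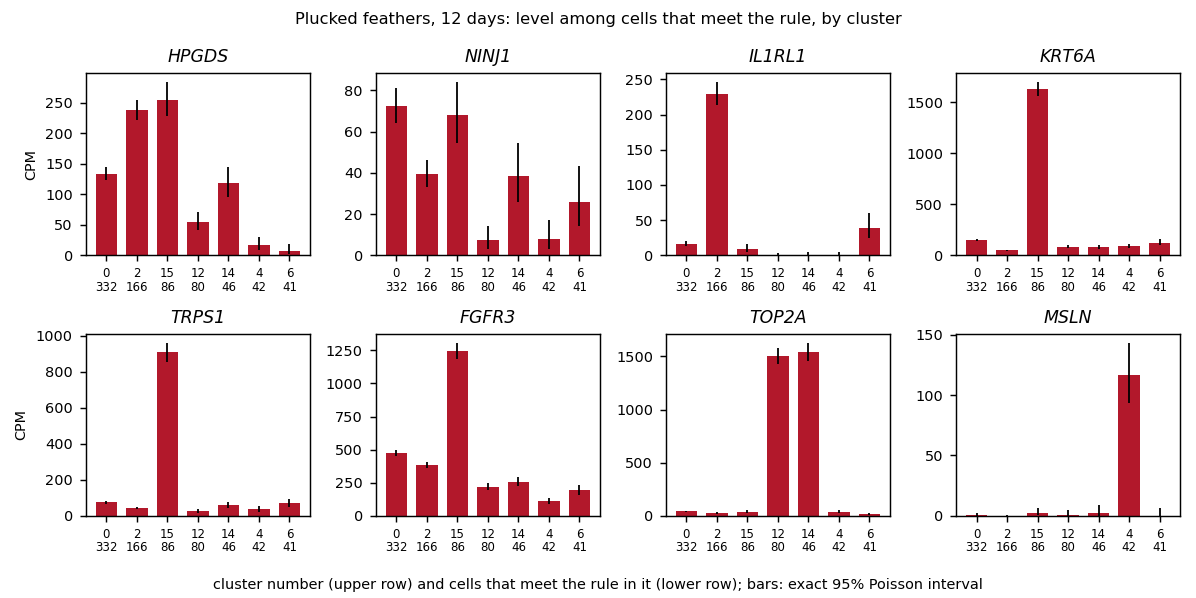
CPM of 8 genes in the NRCAM-positive cells of the 7 clusters that hold at least 40 of them, with exact 95% Poisson intervals. IL1RL1 is at 230 CPM in cluster 2 and KRT6A at 1626 CPM in cluster 15, while HPGDS and NINJ1 are spread over several clusters.

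Levels among NRCAM-positive cells followed these clusters, and since the clusters were built on the same counts the levels only describe them. IL1RL1 was at 230 CPM in the NRCAM-positive cells of cluster 2 and at 38.8 CPM or less in those of the other 6 clusters. KRT6A was at 1626 CPM and TRPS1 at 910 CPM in those of cluster 15, against at most 148 CPM and 75.4 CPM in the other 6. FGFR3 was also highest in cluster 15, at 1246 CPM against 472 CPM in cluster 0. HPGDS was more evenly spread, with 134 CPM in cluster 0, 237 CPM in cluster 2, 255 CPM in cluster 15 and 118 CPM in cluster 14, but it was at 17.2 CPM in cluster 4 and 7.40 CPM in cluster 6. AKAP12, a gene of the rule, was at 706 CPM in cluster 0, 702 CPM in cluster 14 and 143 CPM in cluster 2.

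Within a cluster, NRCAM-positive cells were set against the comparison cells of the same cluster. HPGDS was higher in NRCAM-positive cells in all 7 clusters, with log2 ratios of 0.58 to 1.75. The lowest of these, in cluster 6, rested on 4 UMIs against 3. PTPN12, GPC1, FAM171A1, DIPK2A, HEYL, TNFRSF19, KIAA1671, NAALADL2, EGFR and FGD3 were also above 0 in all 7, but mostly within the 2-fold limit. PTPN12, FAM171A1, KIAA1671 and NAALADL2 passed it in none of the 7. GPC1, HEYL, TNFRSF19, EGFR and FGD3 passed it in 1 each, HPGDS in 2 and DIPK2A in 3. In cluster 0, the largest group, all of these genes lay between 0.11 (DIPK2A) and 0.78 (HPGDS). IL1RL1 was higher in 4 of the 7 and KRT6A in 3 of the 7, and NINJ1, higher in 6, was at -0.18 in cluster 12. Of the lower genes, WNT16, CADM1 and COL17A1 were below 0 in all 7, but WNT16 and CADM1 passed the 2-fold limit in none and COL17A1 in 1. Several of these signs rested on a few UMIs and do not show a direction. In cluster 15 CADM1 had 1 UMI against 1 and COL17A1 1 against 2, and in cluster 12 WNT16 had 2 against 9. EDQM3 and JAG2 were below 0 in 5 each, and EDQM3 passed the 2-fold limit in 4 of them. In cluster 0, with 332 of the NRCAM-positive cells, EDQM3 was instead higher in these, at 117 CPM against 48.1 CPM (1.13). SPINK5 was above 0 in 4 of the 7 (-1.38 to 0.69), in cluster 15 from 1 UMI against 0. The size varied between clusters: PTPN12 lay between 0.28 and 0.94, below its value over all cells, while FGD3 lay between 0.17 and 1.75 and KRT6A between -0.25 and 2.46, on both sides of theirs.

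The rule was met by 13.4% of the kept cells of plucked feathers and by 77 of 5411 (1.42%, interval 1.13 to 1.78) in the 12-day library of feathers in skin. With at least 1 NRCAM UMI in place of 2, the shares were 21.5% in plucked feathers and 3.94% in skin. With every cell thinned to 3000 UMIs they were 2.11% in plucked feathers and 0.0673% in skin. The kept cells had a median of 8537 UMIs in plucked feathers and 6797 UMIs in skin, and cells with at least 20 collagen UMIs and enough depth for the thinning numbered 400 in plucked feathers and 1399 in skin. The W-linked gene HINTW was found in all 834 NRCAM-positive cells of plucked feathers and in 0 of the 77 of skin. A difference between these libraries cannot be told apart from one between embryos.

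**Figure D4:**
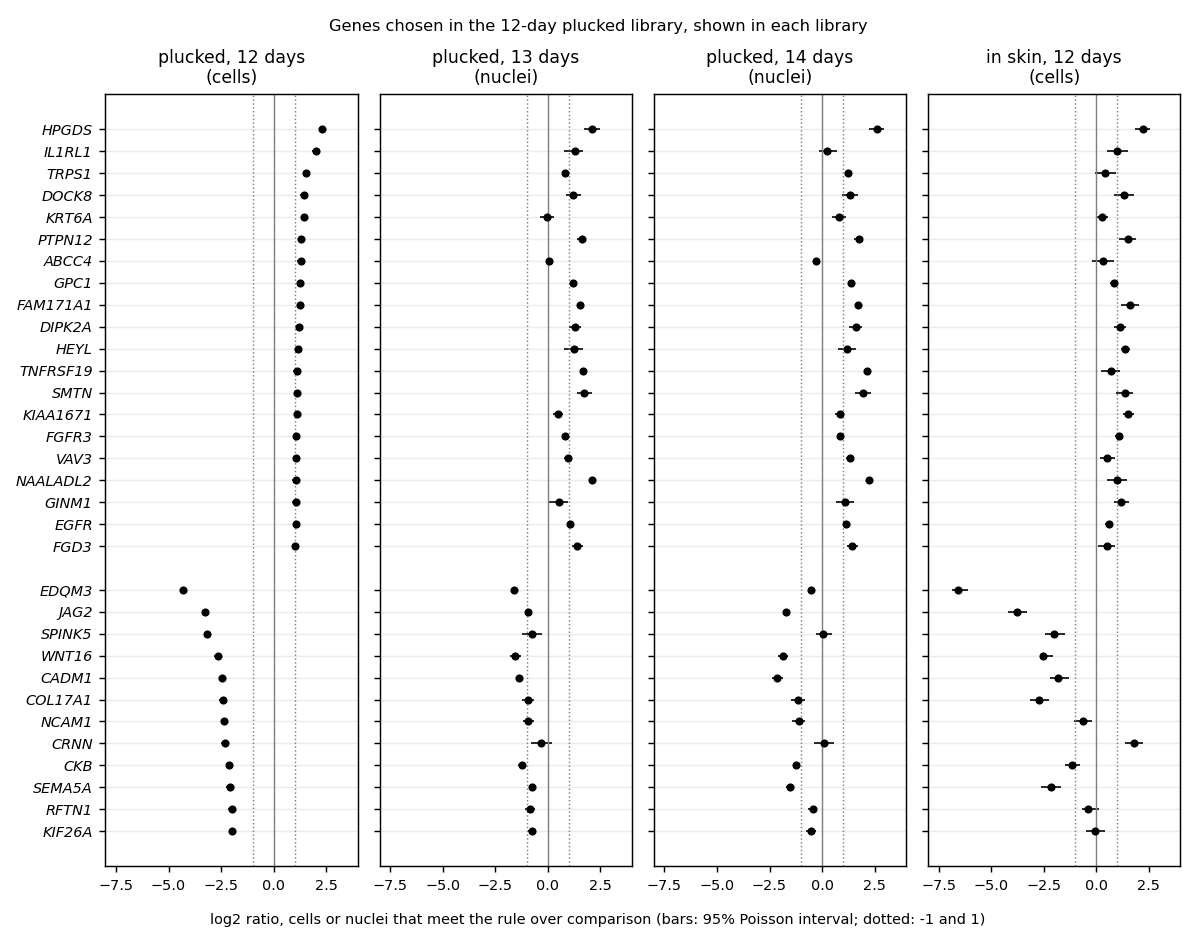
Log2 ratios of the 20 highest and 12 lowest genes of the 12-day plucked library in each of the 4 libraries, with 95% Poisson intervals and dotted lines at -1 and 1. All 20 higher genes lie to the right of 0 in skin, and 11 of the 12 lower genes lie to the left, with CRNN as the exception.

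The skin cells had no part in choosing the genes. All 20 of the highest plucked genes had a log2 ratio above 0 in skin, and the interval was clear of 0 for 17 of them. For KRT6A that sign rested on 1 cell, and without it the log2 ratio was -0.04. Of the 20 highest, 12 had at least 50 CPM in either set of skin cells. Of these 12, 8 were at or above 1, where 2.62% of the 2865 genes compared in that library were. Some of them, such as HPGDS and SMTN, reached 50 CPM only in the NRCAM-positive cells, where they were high. That count is therefore not independent of the filter. Of the 12 lowest, 11 were below 0 and CRNN was above it. Among them 7 had at least 50 CPM in either set, and 6 of the 7 were at or below -1, against 2.79% of genes. JAG2 and EDQM3 reached 50 CPM only in the comparison cells, so the same limit holds here. Of the 1323 comparison cells of skin, 280 had at least 3 SHH UMIs, which the rule bars in NRCAM-positive cells only. For genes high in SHH-positive cells of plucked feathers, such as JAG2, a lower value in skin is therefore not independent of the rule. HPGDS had 91.7 CPM in the NRCAM-positive cells of skin and 12.1 CPM in its comparison cells (2.20), although 1 cell held 41 of the 118 UMIs, and the log2 ratio without it was 1.68. FAM171A1 had 46.6 CPM against 8.50 CPM (1.61), SMTN 58.3 CPM against 16.8 CPM (1.35) and HEYL 253 CPM against 91.1 CPM (1.38). JAG2 had 9.32 CPM against 257 CPM (-3.79) and EDQM3 2.33 CPM against 1176 CPM (-6.59).

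Other genes were weaker in skin. NINJ1, which was not part of the rule, had 10.1 CPM in the NRCAM-positive cells of skin and 6.55 CPM in the comparison cells of skin (0.28, from 13 UMIs). IL1RL1 was held by 4 of the 77 cells, and without the richest of them its log2 ratio was 0.30. KRT6A was at 0.28, with 34 of its 149 UMIs in 1 cell, and TRPS1 was at 0.43. NCAM1 was at -0.64, RFTN1 at -0.39 and KIF26A at -0.04. CRNN had 37.3 CPM against 3.55 CPM (1.80), but a single cell held 44 of its 48 UMIs and the log2 ratio without that cell was -0.04. TUBB3 was higher in the NRCAM-positive cells of skin (1.06), unlike in plucked feathers (-0.31).

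Nuclei of plucked feathers at 13 and 14 days gave values on another scale, since nuclear transcripts differ from those of whole cells, and their CPM leave out mitochondrial and globin UMIs. The rule was met by 970 of 19457 nuclei at 13 days (4.99%) and by 480 of 19435 at 14 days (2.47%), and 612 and 293 of these had at least 3 UMIs of GATA3 and KRT5. Globin made up 12.8% of UMIs in the NRCAM-positive nuclei at 13 days and 24.5% in the comparison nuclei. Their part in the ratios was not tested, beyond leaving globin out of the totals. Most of these nuclei passed through NRP1 alone: 710 of the 970 at 13 days and 376 of the 480 at 14 days had no AKAP12 UMI, so most were NRCAM and NRP1 positive with AKAP12 not detected. In plucked cells that was so for 130 of 834. Of the 20 highest plucked genes, 19 were above 0 at each age. At 13 days 18 of the 20 had at least 50 CPM in either set. Of these 18, 12 were at or above 1, where 2.72% of all compared genes were. At 14 days 13 of 17 were, against 4.08% of genes. A gene can pass the 50 CPM limit through the set where it is high, so these counts are not independent of it. Of the 12 lowest, 10 had at least 50 CPM in either set at each age. Of these, 4 were at or below -1 at 13 days and 7 at 14 days, against 4.02% and 4.53% of genes. At least 3 SHH UMIs were held by 108 of the 1098 comparison nuclei at 13 days and by 89 of the 1945 at 14 days. Lower values of genes of SHH-positive cells are thus not independent of the rule in nuclei either.

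HPGDS was at 117 CPM in NRCAM-positive nuclei and 19.8 CPM in comparison nuclei at 13 days (2.09), and at 88.8 CPM against 6.17 CPM at 14 days (2.61). NINJ1 was at 58.9 CPM against 13.0 CPM at 13 days (1.58) and at 25.1 CPM against 5.86 CPM at 14 days (1.15). FGFR3, KIAA1671, KRT6A and ABCC4 were inside the limit at both ages. So were SPINK5, CRNN, RFTN1 and KIF26A of the 12 lowest genes, and EDQM3 was inside it at 14 days. All 12 were below 0 at 13 days and 10 at 14 days. In the keratinisation list 4 of 7 comparable genes were lower at 13 days and 0 of 8 at 14 days, against 4.02% and 4.53% of all compared genes. Over all 4 libraries, 1520 genes could be compared in each, and 5 were at least 2-fold higher in NRCAM-positive cells or nuclei in every one of them, namely HPGDS, PTPN12, DIPK2A, SMTN and TSHZ2. Those at least 2-fold lower in all 4 were TGFB2, CKB and 2 genes without a symbol. The comparison sets of all 4 libraries included cells or nuclei with at least 3 SHH UMIs. When these were left out in plucked cells, TGFB2 and SMTN were within the 2-fold limit. Some genes were further from 0 in nuclei than in cells, such as TCF7, with 0.96 in plucked cells, 1.57 and 2.00 in nuclei at 13 and 14 days and 1.19 in skin cells, and EHF, an epithelial ETS factor, with 0.77, 1.97, 2.12 and 1.28 in the same order.

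Markers of other cell classes were also used to narrow both sets. TUBB3 of the neuron list was found in 86.0% of NRCAM-positive cells and MITF of the melanocyte list in 80.5%. Leaving out every cell with at least 2 UMIs of the endothelial, mural, melanocyte, Schwann, neuron and leukocyte lists kept 44 NRCAM-positive cells and gave 21 genes higher and 78 lower. The 21 were not simply the earlier higher genes. In those 44 cells IL1RL1 stood at -0.32 and DOCK8 at -0.12 against the narrowed comparison cells, and NINJ1 at 0.43. Also inside the limit were SMTN (0.39), GPC1 (0.48), EGFR (0.60), ABCC4 (0.62), GINM1 (0.72) and PTPN12 (0.77). So were FGD3 (0.78), KRT6A (0.82), HEYL (0.94), DIPK2A (0.98) and FAM171A1 (0.99). HPGDS stood at 1.28 and TRPS1 at 1.99, and KIAA1671 also stayed past the limit. When the markers seen in over 25% of comparison cells were taken off those lists, 723 NRCAM-positive cells were kept, with 19 genes higher and 101 lower.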

How the data were processed

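The authors' deposited tables hold raw UMI counts per gene and barcode, from Cell Ranger 7.0.0 and the genome build GRCg6a per the submitters' processing notes; the file headers of both 12-day libraries name version 3.1.0. Depth ranged from 500 to 62257 UMIs per kept cell in the plucked 12-day library. The members, gene lists and named genes were chosen with earlier results of these data known. Counts were summed over each set of cells and divided by all UMIs (in nuclei, by UMIs other than mitochondrial and globin). Genes with at least 50 CPM in either set were compared by the log2 ratio of CPM + 10. A ratio's 95% interval sets the ends of the exact Poisson intervals against each other, and shares have exact Clopper-Pearson intervals. Both cover counting error only. The text names the 20 highest and 12 lowest genes with a symbol, the rule's genes, up to 4 per list farthest from 0, and the most abundant markers of other classes. TSHZ2, and the genes that lead clusters, were named after their values were seen, as were the list members given as label checks. Doublets were not removed, and Scrublet marked 11 of the 834 members. Clusters came from Leiden at resolution 1 on 2000 variable genes and 30 components (scanpy 1.11.5, Python 3.11.15). TMM factors came from edgeR 4.0.16. Ratios were checked on simulated counts. Kept barcodes shared between any 2 libraries numbered 12 to 110, none of them members in both.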

Additional observations from a re-analysis of the deposited data

Results flagged for a closer look

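CRNN, the gene of an epidermal barrier protein, stood on opposite sides in the 12-day libraries. Its log2 ratio of NRCAM-positive over comparison cells was -2.323 in plucked feathers and 1.803 in skin, and the difference itself was not tested. In skin 44 of 48 CRNN UMIs, and in plucked feathers 70 of 100, lay in a single NRCAM-positive cell. Without those cells the log2 ratios were -0.04 in skin and -2.86 in plucked feathers.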

How the results depend on the processing

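No paired analysis was possible because each group has 1 library. The 23 genes higher and 102 lower became 12 and 64 with at least 1 NRCAM UMI, and the higher ones 37 with at least 4. The lower ones became 179 with no minimum CPM and 61 with at most 5% mitochondrial UMIs. The numbers of the 20 highest and 12 lowest genes past the limit in skin, 10 and 8 with genes under 50 CPM counted, were within 1.5 times under every alternative that could be fitted. The exclusion of cells with 2 or more other-class UMIs left 5 members in skin, too few for ratios.

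The share of cells that meet the rule, 13.4% in plucked feathers and 1.42% in skin, moved with the limits: to 5.44% and 0.460% with at most 5% mitochondrial UMIs, 21.5% and 3.94% with at least 1 NRCAM UMI, 4.87% and 0.222% with at least 4, 10.7% and 1.05% with at least 6 AKAP12 and NRP1 UMIs, and 11.8% and 0.665% with no collagen UMI. It was 23.3% and 3.48% among cells of 8000 to 30000 UMIs, 2.92% and 0.285% without cells holding other-class markers, and 16.3% and 1.90% when widely seen markers were taken off those lists, an alternative chosen after seeing the data. Thinned to 3000 UMIs it was 2.11% and 0.0673%, and thinned to 1000 UMIs with 1 UMI of NRCAM and 1 of the pair 2.85% and 0.293%.

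Of 1995 alternative log2 ratios in plucked feathers 1495 stayed within the counting interval and 2 changed sign after a call, IL1RL1 (-0.32) and DOCK8 (-0.12) without cells holding other-class markers. Of 1890 in skin, 1612 stayed and 6 changed sign: DOCK8 (-0.24), DCN (0.10), TUBB3 (-0.47) and RFC2 (0.12) with at most 5% mitochondrial UMIs, where 10 members were left, and CRNN (-0.44) with at least 4 NRCAM UMIs and (-0.042) without the richest cell, the last chosen after seeing the data. The cause was not tested.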
